A study of Mus musculus with 24 samples.

Results

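The Wnt ligands Wnt2b, Wnt4, Wnt5a, Wnt5b, Wnt6, Wnt7a, Wnt7b, Wnt9b, Wnt10a and Wnt11 were followed in the embryonic mouse urogenital sinus. They were taken by name: every array probe annotated with one of these symbols was kept, whatever its signal. This gave 12 probes for 10 genes, out of 41174 probes for 28655 genes on the array. Wnt5b and Wnt6 had 2 probes each and the other genes 1. All 12 probes passed the filter on dim spots, which kept 35477 probes in all, and the brightest probe of each gene was used for its test.

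The urogenital sinus is the embryonic tube of epithelium and mesenchyme from which the prostate, bladder neck and urethra form. C57BL/6J pregnant females were given 50 mg/kg of the androgen dihydrotestosterone (DHT) or vehicle at 16 days post coitum (dpc). Sinuses of their female embryos were taken after 6 h (4 pairs of pools) or 12 h (3 pairs). Untreated male and female littermates were compared at 17.5 dpc in 5 pairs, a set that the labels also call the 48 h point. The males of that set had their own testicular hormones, so they differ from their sisters in sex as well as in androgen exposure. Every pool held RNA of several embryos whose number is not given, and the sinus was whole tissue freed of its accessory ducts. Within a pair, both pools were hybridised together on 2 arrays with the Cy3 and Cy5 dyes exchanged, and the 2 arrays were averaged. A log2 ratio is DHT over vehicle or male over female. A level is the log2 signal of a pool, comparable between pools for the same probe and not between probes.

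Wnt proteins are secreted, lipid-modified signals that act over short distances. They bind Frizzled receptors with the co-receptors Lrp5 and Lrp6 and stabilise beta-catenin, or act through Ror and Ryk receptors and the planar cell polarity proteins without it. In the urogenital tract, Wnt4 is needed for the Mullerian duct and for ovarian development, Wnt9b is made by the Wolffian duct epithelium and organises the kidney and the ducts, and Wnt7a is made by the Mullerian duct epithelium and patterns the female tract. Wnt5a, made by mesenchyme, shapes outgrowth of the prostate and genital tubercle, and Wnt5b is its nearest relative. Wnt6, Wnt7b and Wnt11 are known from epithelial tubes such as the collecting duct, Wnt10a from teeth, hair and skin, and Wnt2b from organ mesenchyme.

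The proximal promoters of the members with the largest sex differences, and of Wnt6 and Wnt9b, whose ratios were most alike across pairs, are printed so that they can be compared. The RefSeq table of promoters (build GRCm38.p6) held an entry for 7 of the 10 members, with 10 start sites. Wnt5a, Wnt7b and Wnt10a were not matched. Shown are the 250 bases before the start, 5′ to 3′ on the gene's strand, at chr4:137277385-137277634 (plus strand), chr1:74771642-74771891 (plus), chr11:103749822-103750071 (minus) and chr6:91411354-91411603 (minus). Capitals mark the GC box GGGCGG on either strand, where neighbouring boxes can overlap.
Wnt4: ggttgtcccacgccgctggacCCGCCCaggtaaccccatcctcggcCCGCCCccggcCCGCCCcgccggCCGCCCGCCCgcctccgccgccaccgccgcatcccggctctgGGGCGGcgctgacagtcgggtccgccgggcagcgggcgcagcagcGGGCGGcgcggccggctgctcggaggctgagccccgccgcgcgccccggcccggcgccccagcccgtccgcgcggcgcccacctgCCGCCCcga
Wnt6: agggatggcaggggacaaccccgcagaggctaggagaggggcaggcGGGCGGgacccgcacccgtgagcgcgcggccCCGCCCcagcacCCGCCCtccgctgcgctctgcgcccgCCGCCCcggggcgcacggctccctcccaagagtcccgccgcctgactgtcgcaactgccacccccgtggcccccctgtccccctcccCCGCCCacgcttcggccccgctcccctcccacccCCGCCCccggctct
Wnt9b: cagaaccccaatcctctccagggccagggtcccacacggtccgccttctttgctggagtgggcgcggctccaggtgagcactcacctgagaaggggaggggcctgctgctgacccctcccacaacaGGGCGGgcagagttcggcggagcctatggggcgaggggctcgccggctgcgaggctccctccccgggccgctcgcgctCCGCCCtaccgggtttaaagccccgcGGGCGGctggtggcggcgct
Wnt7a: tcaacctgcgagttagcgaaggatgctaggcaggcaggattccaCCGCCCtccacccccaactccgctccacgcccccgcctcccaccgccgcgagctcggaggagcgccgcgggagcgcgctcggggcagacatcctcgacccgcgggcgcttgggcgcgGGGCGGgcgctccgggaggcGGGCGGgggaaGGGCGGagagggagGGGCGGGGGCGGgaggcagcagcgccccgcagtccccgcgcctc
The GC box occurred 8 times in the Wnt4 window, 6 times in that of Wnt6, 3 times in that of Wnt9b and 6 times in that of Wnt7a. Of all 32851 RefSeq promoter windows of this length, 32.7% held it at least once. The windows of Wnt4, Wnt6, Wnt9b and Wnt7a were 85.2%, 79.6%, 72.0% and 77.6% G or C, and the median over all windows was 52.4%. The androgen receptor half-site AGAACA, searched on both strands, was found in none of these 4 windows and in 16.1% of all windows. The TCF/LEF core CTTTGA was found in none of the 4 and in 13.8% of all. Among the other members, a window of Wnt5b held the half-site once, and another window of Wnt5b and a window of Wnt11 held the TCF/LEF core once each.

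The libraries differed in ways that bear on the ligands. The epithelial list (25 of 25 markers) and the mesenchymal list (12 of 12) were well above background on every array. Of the 7 markers of Wolffian and Mullerian ducts, 5 were well above background on every array, and Crisp1 was above it on none in at least 1 group. The 4 Y-linked genes measured had mean log2 ratios of −0.14, −1.27, −0.68 and −0.74 in the 4 pairs at 6 h. Their mean level was 6.11 to 7.35 in the 6 h vehicle pools, which are labelled female, and 5.97 to 6.11 in the DHT pools, with 3 of the 4 genes called lower. At 12 h the same mean stayed between −0.08 and 0.05. Over all genes, the 2 dye-swapped arrays of a pair, turned to the same direction, correlated at r = 0.351 to 0.741 in the male-female pairs, −0.512 to −0.078 at 6 h and −0.216 to 0.09 at 12 h. Genes are not independent replicates, and these values only describe how far the arrays of a pair went together.

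Males differed from females in 5 of the 10 ligands, and in both directions. Wnt4, Wnt9b and Wnt6 were higher in males, and Wnt7a and Wnt5b were lower. Over all 24717 genes, 7.58% were called in this comparison, 3.72% higher and 3.86% lower, at an adjusted p under 0.05 in limma with Benjamini-Hochberg adjustment. Before adjustment, 6 members and 18.5% of all genes had a p under 0.05. The median size of the log2 ratio was 0.236 for the 10 members and 0.041 for all genes. The members were chosen with earlier results of these data known. Values of all genes, here and below, are therefore given as description and do not test the list.

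Wnt4 had the largest rise. Its signal (probe A_51_P130475) was 9.20, 9.34, 9.52, 9.83 and 9.23 in the male pools and 8.44, 8.52, 8.34, 8.73 and 8.37 in their female partners. Every male pool was above every female pool, and the pairs gave log2 ratios of 0.76, 0.82, 1.18, 1.10 and 0.86. The mean log2 ratio was 0.94 ± 0.19 (SD, n = 5 pairs; SE 0.075), or 1.92-fold, with an adjusted p of 4.94e-06. All 10 arrays showed the rise, and the 2 arrays of a pair differed by at most 0.223.

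Wnt7a had the largest fall. The female pools read 7.39, 7.13, 7.22, 7.16 and 7.28 and the male pools 6.62, 6.42, 6.35, 6.49 and 6.47 (probe A_52_P79782). The 2 sexes did not overlap, and the ratios of −0.77, −0.71, −0.88, −0.67 and −0.81 were all far from 0. The mean was −0.77 ± 0.079 (SD, n = 5 pairs; SE 0.050), a level 1.70-fold lower in males, with an adjusted p of 1.07e-06. The size depended on the background correction: normexp without the added offset gave −1.56 and the scanner software's own ratios gave −1.70.

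Wnt9b, the Wolffian duct ligand, came next among the ligands higher in males. Male pools read 7.63, 7.52, 7.67, 7.86 and 7.43 and female pools 7.19, 6.94, 7.28, 7.13 and 7.04. The ranges did not overlap, and the pairs gave 0.44, 0.57, 0.40, 0.73 and 0.39. The mean log2 ratio of Wnt9b was 0.51 ± 0.14 (SD, n = 5 pairs; SE 0.058), or 1.42-fold, adjusted p 9.82e-05. It was 0.79 without the offset and 0.80 by the scanner's ratios.

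Wnt6 rose less, and its 2 probes moved the same way. The brighter probe (A_52_P415155) gave 0.27, 0.35, 0.26, 0.64 and 0.15, a mean of 0.33 ± 0.19 (SD, n = 5 pairs; SE 0.066) and an adjusted p of 0.0069. Male pools spanned 9.05 to 9.40 and female pools 8.70 to 8.97, without overlap. The dimmer probe (A_51_P482571) gave 0.13, 0.23, 0.07, 0.42 and 0.08, positive in every pair, with a mean of 0.19 and an adjusted p of 0.0562 when all probes were tested separately, a test that called 6.19% of probes. Its first pair rests on 1 array, because the spot on the other was marked as an outlier. In both probes pair 4 stood highest.

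Wnt5b was lower past the threshold on the brighter of its probes only. That probe (A_51_P137991) gave −0.32, −0.25, −0.31, −0.39 and −0.33, a mean of −0.32 ± 0.052 (SD, n = 5 pairs; SE 0.036), or 1.25-fold lower, with an adjusted p of 8.48e-05. Male pools spanned 7.97 to 8.32 and female pools 8.31 to 8.64, so the sexes touched although every pair went one way. The other Wnt5b probe (A_52_P85805), dimmer at 6.36 to 6.54 across these pools, gave −0.04, 0.01, −0.07, −0.13 and −0.11, with an adjusted p of 0.34. On that probe the 2 arrays of a pair had opposite signs in 3 of 5 pairs. The mean over both probes was −0.19, with an adjusted p of 0.00154.

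The other 5 ligands did not pass the test between the sexes. Wnt5a came closest, at −0.24, −0.21, −0.12, 0.01 and −0.02, with a mean of −0.12 (95% confidence interval −0.20 to −0.04) and an adjusted p of 0.0809. Wnt7b had a mean of 0.13 (−0.01 to 0.26), Wnt2b −0.04 (−0.11 to 0.03) and Wnt11 −0.01 (−0.11 to 0.09). Wnt2b was measured near the limit, well above background on 1 of 10 arrays in the male channel and 2 of 10 in the female channel. Across 29 alternatives its mean ran from −0.30 to −0.001. Wnt10a had ratios of −0.07, 0.94, 0.07, 0.07 and −0.26, with a mean of 0.15 ± 0.46 (SD, n = 5 pairs), which was −0.05 without pair 2. Both arrays of that pair showed the value, at 0.91 and 0.97, and the male pool read 9.29 where the other male pools read 7.97 to 8.52.

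Markers of both tissue layers differed between the sexes. In bulk tissue, fewer cells of a type and less RNA per cell cannot be told apart. The epithelial list averaged 0.06, 0.28, 0.47, 0.38 and 0.20 in the 5 pairs, with 12 of 25 markers higher and 1 lower. Its mean level was 9.71 to 10.07 in male and 9.47 to 9.70 in female pools. The mesenchymal list averaged −0.22, −0.06, −0.47, −0.66 and −0.14, with 5 of 12 markers lower and none higher, and its mean level was 11.39 to 12.04 in males and 12.04 to 12.10 in females. The highest ratios of Wnt4 fell in pairs 3 and 4, where both lists were also furthest from 0. Wnt9b and Wnt6 were highest in pair 4 (0.73 and 0.64), but were 0.40 and 0.26 in pair 3. Wnt7a fell furthest in pair 3 (−0.88) and least in pair 4 (−0.67).

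With the epithelial mean as a covariate, Wnt4 kept 0.73 (adjusted p 2.19e-05), Wnt9b 0.48 (0.00467), Wnt5b −0.32 (0.00334) and Wnt7a −0.79 (5.73e-05), while Wnt6 at 0.26 (0.166) did not pass. With the mesenchymal mean, an alternative added after the data were seen, 2 members passed: Wnt4 at 0.72 (0.00464) and Wnt7a at −0.77 (0.0011). Wnt5b at −0.28 (0.0521), Wnt9b at 0.42 (0.0626) and Wnt6 at 0.16 (0.848) then missed the threshold.

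Duct markers were read beside Wnt7a, since the ducts were dissected away. Amhr2, the anti-Mullerian hormone receptor that marks Mullerian duct mesenchyme, gave −1.25, −1.41, −0.78, −0.69 and −1.25 in the male-female pairs, with a mean of −1.08 and an adjusted p of 4.13e-05. Amhr2 was the 1 duct marker called of 7. The list's mean log2 ratio was −0.154, and its mean level was 6.63 to 6.77 in male and 6.67 to 7.03 in female pools. The other 6 markers did not pass, and the list mixes Wolffian and Mullerian markers. A covariate of this mean therefore does not stand for Mullerian tissue alone. The part of such tissue in the Wnt7a ratio was not tested. With the mean of the 7 duct markers as a covariate, again added after the data were seen, Wnt7a was −0.69 (adjusted p 0.00227), Wnt4 0.98 (0.00448), Wnt9b 0.53 (0.0313), Wnt5b −0.36 (0.0155) and Wnt6 0.41 (0.161).

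Other cell types also differed between the sexes. Of 7 immune cell markers 2 were lower in males and all 7 were negative, with a mean level of 7.09 to 7.32 in male and 7.33 to 7.52 in female pools. Of 9 smooth muscle markers 3 were lower, at 9.76 to 10.60 in male and 10.15 to 10.67 in female pools. None of 7 endothelial markers was called (1 had an unadjusted p under 0.05 in limma). The part of the immune and smooth muscle cells in the ligand ratios was not tested.

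**Figure D1:**
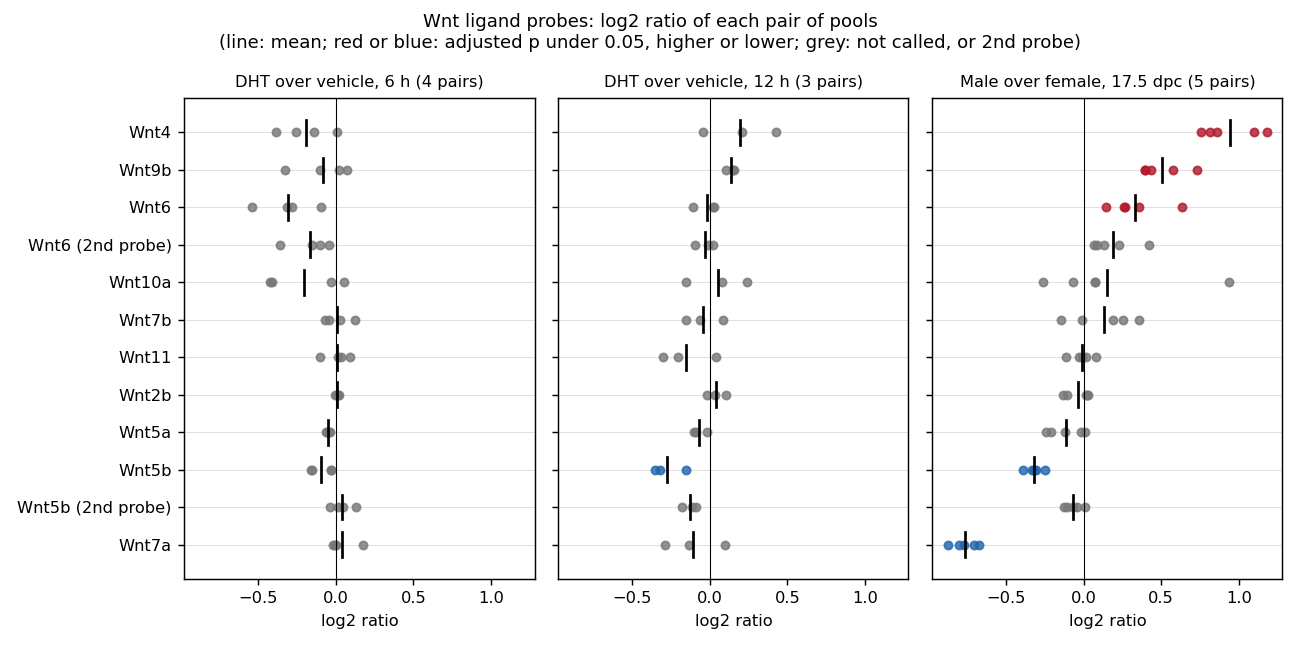
Log2 ratio (x axis) of each Wnt ligand probe (rows) in every pair of pools, in panels for DHT over vehicle at 6 h (4 pairs) and 12 h (3 pairs) and male over female at 17.5 dpc (5 pairs); points are pairs, black lines means, and colours mark members with an adjusted p under 0.05. In the male-female panel Wnt4, Wnt9b and Wnt6 lie to the right of 0 and Wnt7a and Wnt5b to the left in every pair, and Wnt10a has 1 point at 0.94 away from the rest.

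At 6 h after DHT, none of the 10 ligands passed the test in limma. Of all genes 1.63% did, and 3 members had an unadjusted p under 0.05 (Wnt4, Wnt5b and Wnt6), against 14.3% of all genes. By sign, Wnt5a, Wnt5b (brighter probe) and Wnt6 were below 0 in all 4 pairs, and 24.6% of all genes had 1 sign in all 4. The 2 arrays of a pair had opposite signs in 3 of 4 pairs for Wnt5a and for that Wnt5b probe, and in 0 for Wnt6. A fit of the single arrays with a dye term called 1 member, Wnt6. The median size of the members' log2 ratios was 0.067, against 0.042 for all genes.

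Wnt6 came nearest at 6 h, in the opposite direction to its sex difference. The DHT pools read 8.64, 8.61, 8.83 and 8.71 and the vehicle pools 8.92, 9.15, 8.93 and 9.03, so every DHT pool was below every vehicle pool. Ratios were −0.28, −0.54, −0.10 and −0.32, with a mean of −0.31 ± 0.18 (SD, n = 4 pairs; SE 0.074) and an adjusted p of 0.0577. The second probe gave −0.10, −0.36, −0.05 and −0.15 (adjusted p 0.199 in the fit of separate probes, which called 1.69%), and on both probes both arrays of all 4 pairs were negative. Across the alternatives the adjusted p of Wnt6 ranged from 0.00404 to 0.568, and 6 of 30 put it past the threshold.

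Wnt4 gave −0.26, −0.38, −0.14 and 0.01 at 6 h, a mean of −0.19 ± 0.17 (SD, n = 4 pairs), adjusted p 0.31. Wnt10a gave −0.43, −0.41, −0.03 and 0.05, a mean of −0.20 ± 0.25, adjusted p 0.643. Both were lower in pairs 1 and 2 than in pairs 3 and 4. The mean of the 25 epithelial markers did the same, at −0.50, −0.40, −0.07 and 0.02, with 0 of 25 called and all 25 on average below 0. With that mean as a covariate, Wnt4 was −0.01 and Wnt10a −0.01. The mean of 7 immune cell markers was higher in pairs 1 and 2, at 0.31, 0.28, 0.12 and 0.15, with 1 of 7 called higher. The part of immune cells in the ratios of Wnt4 and Wnt10a was not tested, nor that of epithelium beyond the covariate.

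Wnt9b gave 0.07, −0.33, 0.02 and −0.10, lowest in pair 2 and also negative on both arrays of pair 4. Wnt7a gave 0.00, 0.18, −0.02 and −0.01, highest in pair 2. Pair 2 was also the pair with the strongest excess of Y-linked RNA in vehicle, at −1.27, and with the highest Amhr2 ratio, 0.81 against 0.07 to 0.36 in the other pairs. In that pair the ligands higher in males (Wnt4, Wnt6, Wnt9b) were all negative, while of those lower in males Wnt7a was positive and Wnt5b, at −0.03, was not. In pairs 3 and 4, with Y-linked means of −0.68 and −0.74, Wnt7a was −0.02 and −0.01. Xist, at −5.69 on average in males over females, gave −0.35, 1.07, 0.22 and −0.13 in the 4 pairs at 6 h. The part of male RNA in the ligand ratios was not tested beyond leaving pairs out. Without pair 2 the means were −0.13 for Wnt4, −0.23 for Wnt6 and 0.00 for Wnt9b. In pair 1, the pair nearest to 0 in Y-linked RNA, Wnt4 was −0.26, Wnt6 −0.28 and Wnt9b 0.07.

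The remaining members were close to 0 at 6 h. Wnt5b gave −0.15, −0.03, −0.16 and −0.03 by its brighter probe, a mean of −0.09 with an adjusted p of 0.306, and 0.04 by the other. Wnt5a averaged −0.05, Wnt7b 0.01, Wnt11 0.01 and Wnt2b 0.01. The 95% interval was −0.14 to 0.04 for Wnt5a, −0.14 to 0.16 for Wnt7b, −0.10 to 0.12 for Wnt11 and −0.07 to 0.09 for Wnt2b. Wnt5a was well above background on 3 of 8 arrays in the DHT channel and 7 of 8 in the vehicle channel, and Wnt2b on 1 and 2 of 8, so both were measured near the limit.

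At 12 h after DHT, 1 of the 10 ligands was called, against 0.287% of all genes (0.174% lower and 0.113% higher). Before adjustment, 2 members and 14.1% of all genes had a p under 0.05. It was Wnt5b, with DHT pools at 8.01, 8.08 and 7.96 and vehicle pools at 8.33, 8.24 and 8.32. The DHT pools all lay below the vehicle pools, with ratios of −0.32, −0.16 and −0.35. The mean log2 ratio was −0.28 ± 0.11 (SD, n = 3 pairs; SE 0.047), or 1.21-fold lower, adjusted p 0.0475. All 6 arrays were below 0. The second probe gave −0.18, −0.09 and −0.11, with an adjusted p of 0.171 in the fit of separate probes, which called 0.276%.

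The Wnt5b call at 12 h sat at the threshold: 26 of 30 alternatives lost it, with adjusted p up to 0.464, and none changed its direction. Leaving out any of the 3 pairs ended the call, at −0.26 without pair 1, −0.34 without pair 2 and −0.24 without pair 3 (adjusted p 0.136, 0.0926 and 0.176).

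No other ligand passed at 12 h. Wnt4 gave −0.04, 0.21 and 0.43, a mean of 0.20 ± 0.24 (SD, n = 3 pairs), adjusted p 0.39. Wnt10a gave −0.15, 0.08 and 0.24. Both took the same order over the pairs as the epithelial mean of 0.00, 0.26 and 0.57, and with that mean as a covariate Wnt4 was −0.02 and Wnt10a −0.17. The mean of 9 skeletal muscle markers took the same order at 12 h, at 0.04, 0.42 and 0.87. It was −0.45, −0.36, 0.20 and −0.05 at 6 h and 0.31, −0.51, 1.5, −0.01 and 0.27 between the sexes, highest like Wnt4 in male-female pair 3, with 0 of 9 called in each comparison (0, 1 and 2 at an unadjusted p under 0.05 in limma). The part of skeletal muscle in the ratios of Wnt4 and Wnt10a was not tested, nor that of epithelium beyond the covariate. Wnt9b was positive in all 3 pairs, at 0.16, 0.10 and 0.15, with a mean of 0.14 (95% interval −0.02 to 0.30) and an adjusted p of 0.452. By sign alone this is common, since 35.5% of all genes had the same sign in all 3 pairs. The 2 arrays of a pair had opposite signs in 2 of the 3 pairs for Wnt9b.

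Wnt6, below vehicle in all pairs at 6 h, averaged −0.02 at 12 h (−0.21 to 0.16). Wnt7a gave −0.13, −0.29 and 0.10, with a mean of −0.11 (−0.25 to 0.03). Wnt11 gave −0.20, 0.04 and −0.30, with a mean of −0.16 (−0.29 to −0.03), an unadjusted p under 0.05 and an adjusted p of 0.256. Wnt5a averaged −0.07 (−0.17 to 0.03), Wnt7b −0.04 (−0.22 to 0.13) and Wnt2b 0.04 (−0.05 to 0.13). Wnt2b was well above background on 4 of 6 arrays in the DHT channel and 2 of 6 in the vehicle channel.

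**Figure D2:**
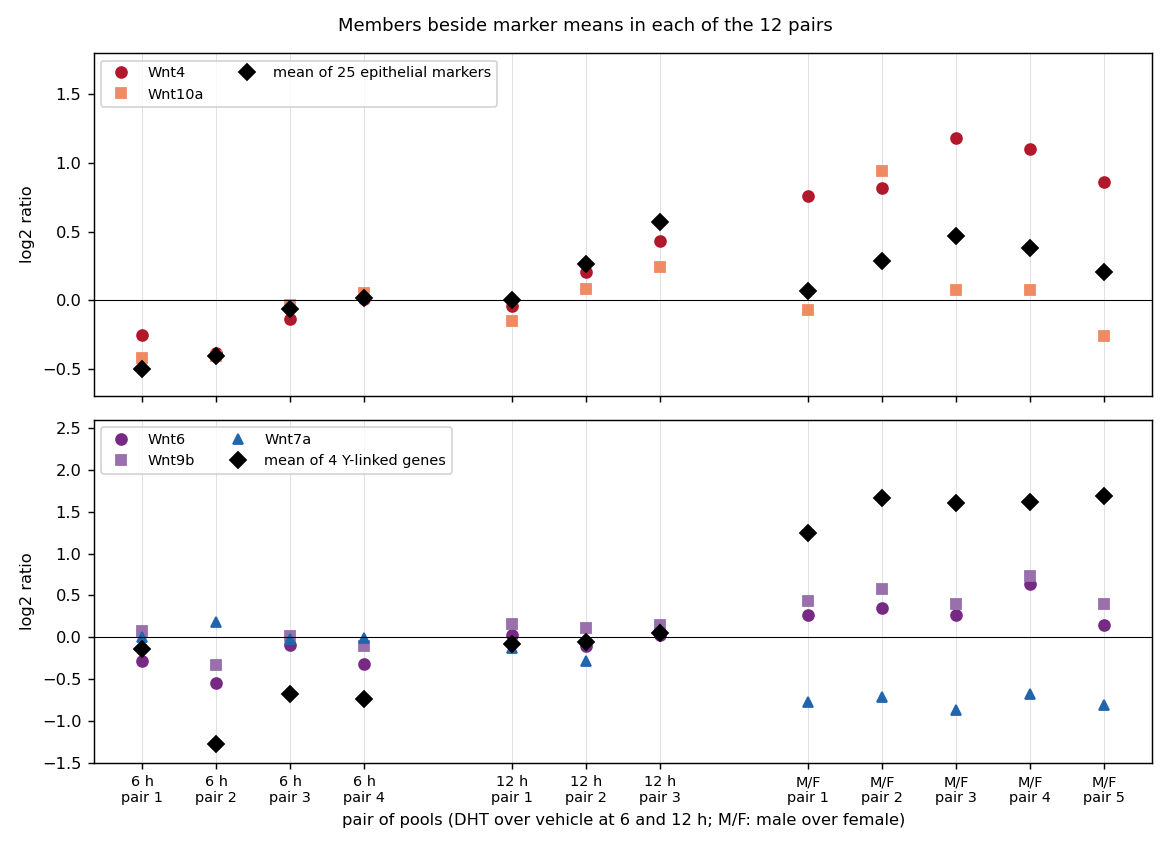
Log2 ratio (y axis) in each of the 12 pairs of pools (x axis): Wnt4 and Wnt10a with the mean of 25 epithelial markers (upper panel), and Wnt6, Wnt9b and Wnt7a with the mean of 4 Y-linked genes (lower panel). Wnt10a lies close to the epithelial mean in the 4 pairs at 6 h and departs from it at 0.94 in male-female pair 2, while Wnt4 lies above that mean in all 5 male-female pairs.

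Differences between the comparisons were tested as contrasts of the same fit. Each comparison was hybridised on its own date, which the labels give, so time, kind of comparison and hybridisation date cannot be told apart in these contrasts. Between 12 h and 6 h, no member was called in limma, against 0.113% of all genes, and 4 members against 14.4% of all genes had an unadjusted p under 0.05. The widest was Wnt4, 0.39 higher at 12 h (adjusted p 0.19).

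The sex difference departed from the 6 h response in 5 members, against 6.91% of all genes. Before adjustment it was also 5, against 19.4% of all genes. The contrast was 1.14 for Wnt4 (adjusted p 9.19e-05), 0.64 for Wnt6 (0.00203), 0.59 for Wnt9b (0.00141), −0.81 for Wnt7a (5.38e-05) and −0.23 for Wnt5b (0.023). The 6 h vehicle pools also carried Y-linked RNA, with Y-linked mean ratios of −0.14, −1.27, −0.68 and −0.74 in the pairs. Its part in these contrasts was not tested beyond leaving out 6 h pairs. The sign of Wnt4 and Wnt6 was negative at 6 h and positive between the sexes. With the epithelial, mesenchymal or duct mean as a covariate, Wnt4 and Wnt7a kept this call under all 3. Wnt6 lost it under each (adjusted p 0.179, 0.103 and 0.0848), as did Wnt9b (0.103, 0.0696 and 0.109) and Wnt5b (0.331, 0.357 and 0.281). Wnt5b lost it in 12 of 29 alternatives. With 6 h pair 1 as the only 6 h pair, a single pair whose spread is assumed to be that of the other groups, the contrast was 1.20 for Wnt4, −0.77 for Wnt7a, 0.62 for Wnt6, 0.43 for Wnt9b and −0.17 for Wnt5b, and Wnt4 was called.

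Against the 12 h response, 2 members differed, where 1.65% of all genes did; before adjustment it was 4 members and 15.5% of genes. Wnt4 was 0.75 higher (adjusted p 0.00916) and Wnt7a 0.66 lower (contrast −0.66, adjusted p 0.00186). The Wnt4 contrast lost its call in 2 of 29 alternatives, at 0.62 without pair 1 at 12 h (adjusted p 0.0612) and at 0.52 with the mesenchymal covariate (0.214). Wnt5b, lower in both comparisons, had a contrast of −0.04 with a 95% interval of −0.17 to 0.08.

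The levels of a probe can also be set side by side over the 3 sets, where differences carry the hybridisation date. Wnt4 averaged 9.42 ± 0.26 (SD, n = 5) in males and 8.48 ± 0.16 in females, 7.97 ± 0.21 and 7.77 ± 0.03 (n = 3) in the 12 h DHT and vehicle pools, and 7.35 ± 0.12 and 7.16 ± 0.08 (n = 4) in the 6 h vehicle and DHT pools. In that order, 12 h DHT and 12 h vehicle did not differ beyond their spread, and the pools of the 6 h groups overlapped. Wnt9b was also highest in the 17.5 dpc set, at 7.62 ± 0.16 in males and 7.12 ± 0.13 in females, with the 4 other groups between 6.63 and 6.77.

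Wnt5b and Wnt11 stepped up between the 6 h pools and both later sets. Wnt5b was 7.27 ± 0.07 and 7.37 ± 0.05 at 6 h and between 8.02 and 8.44 in the other 4 groups. Wnt11 was 7.43 ± 0.05 and 7.44 ± 0.07 at 6 h, and between 8.18 and 8.43 in the rest. Wnt5a was highest at 12 h, at 7.02 ± 0.15 in vehicle and 6.95 ± 0.12 in DHT pools, against 6.41 to 6.53 at 17.5 dpc and 6.11 to 6.16 at 6 h. Wnt7a was lowest in males, at 6.47 ± 0.10, and 6.85 to 7.33 in the 5 other groups. Wnt10a, Wnt7b and Wnt2b had overlapping neighbours throughout the order: Wnt10a group means ran from 7.95 to 8.43, Wnt7b from 7.98 to 8.42 and Wnt2b from 6.02 to 6.14. Wnt6 was highest in males on both probes, and its brighter probe ran from 8.70 in 6 h DHT pools to 9.15, with overlap between all neighbours in the order.

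**Figure D3:**
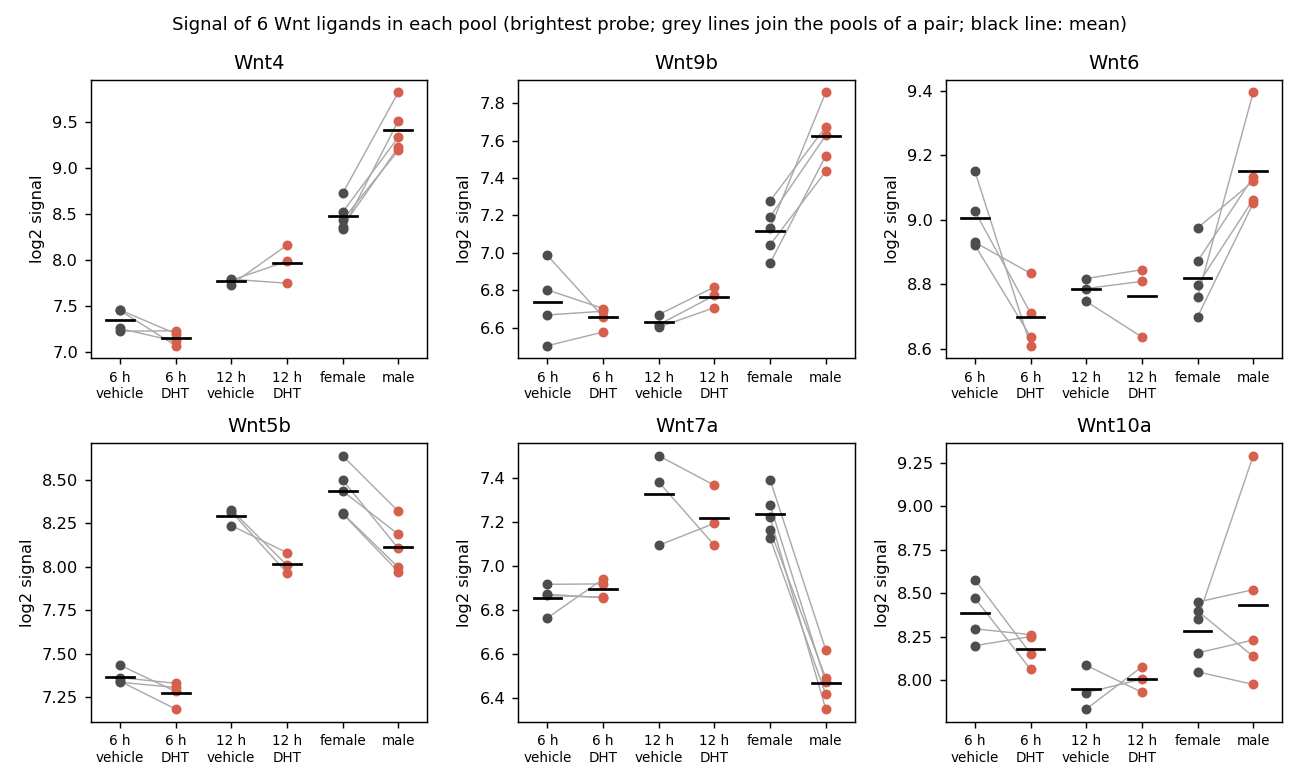
Log2 signal (y axis, a separate scale for each gene) of 6 Wnt ligands in every pool of the 6 groups (x axis); points are pools, grey lines join the pools of a pair, and black lines are group means. Wnt4 goes from 7.16 in 6 h DHT pools to 9.42 in males, Wnt7a drops between every female pool and its male partner, and Wnt5b is at most 7.43 in the 6 h pools and at least 7.96 in all others.

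Likeness of pattern was described by Pearson's r of the log2 ratios over the 12 pairs, with no test, since the pairs of a comparison share treatment, stage and hybridisation date. Wnt6 and Wnt9b had each other as nearest gene among the 24674 compared, at Pearson r = 0.976. After Wnt9b, Wnt6 was nearest to Fxyd4 (0.972) and to an array feature named NAP047296-1 (0.954). After Wnt6, Wnt9b was nearest to Trpv4 (0.97) and AK053080 (0.962). Wnt4 was nearest to Aldh1a7 (0.99), Anxa9 (0.983) and Psca (0.982), Wnt7a to Vstm2b (0.99), Rbbp9 (0.971) and Slc1a3 (0.969), and Wnt5b to H2-Ab1 (0.93), 9330169L03Rik (0.923) and P3h4 (0.906). Among members, Wnt4 correlated at 0.891 with Wnt6, 0.889 with Wnt9b and −0.903 with Wnt7a.

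Aldh1a7 shows how close these patterns were. Its ratios were −0.59, −0.90, −0.30 and −0.14 at 6 h, −0.13, 0.49 and 0.85 at 12 h, and 1.29, 1.15, 1.89, 1.62 and 1.48 between the sexes. Like Wnt4, it was lowest in 6 h pair 2, lowest in pair 1 and highest in pair 3 at 12 h, and highest in male-female pair 3.

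Members that lie next to another Wnt gene can be set beside it. In the RefSeq table, Wnt6 and Wnt10a are adjacent protein-coding genes, as are Wnt9b and Wnt3. Between the sexes Wnt6 was 0.33 and Wnt10a 0.15 (adjusted p 0.675 in limma), which was −0.05 without pair 2. For the other neighbours, Wnt9b was 0.51 and Wnt3 −0.01 (adjusted p 0.987).

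The other genes of the pathway, in lists drawn up with earlier results of these data known, were counted beside the ligands. Of 9 further Wnt ligands 8 could be tested, and only Wnt9a passed: it was −0.35 between the sexes (adjusted p 3.49e-05), with 0 of 8 at 6 h and at 12 h. For secretion, 0 of 3 genes (Porcn, which attaches the lipid, Wls, which carries Wnts to the surface, and Notum, which removes the lipid) passed in any of the 3 comparisons.

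Among 16 receptors and co-receptors, 2 fell at 6 h, Ptk7 at −0.38 (adjusted p 0.0202) and Ryk at −0.20 (0.0326), both receptors of beta-catenin-independent signals. None passed at 12 h, and between the sexes Fzd7 rose (0.23, 0.00549) and Fzd3 fell (−0.19, 0.0379). Of 11 planar cell polarity genes, Vangl2 fell at 6 h (−0.30, 0.00984) and none passed at 12 h. Between the sexes Vangl1 rose (0.16, 0.0197), and Celsr1 (−0.31, 0.012), Fzd3 and, named after its value was seen, Vangl2 (−0.15, 0.0408) fell. None of 9 genes of the destruction complex and Dishevelled passed in any of the 3 comparisons.

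The secreted modulators, which hold Wnts away from receptors or strengthen their signal, held the widest sex differences of these lists. Of 13 tested, 3 were higher and 4 lower in males, against 0 at 6 h and 1 at 12 h. Wif1, which binds Wnts directly, was 1.53 (adjusted p 1.88e-07), Dkk2, which binds Lrp5 and Lrp6, −1.21 (8.02e-06), and the R-spondins Rspo2 and Rspo1, which keep receptors at the surface, −1.04 (1.66e-05) and −0.77 (0.000117). Rspo1 and the others called were named after their values were seen; those others were Rspo3 at 0.62, Sfrp2 at 0.56 and Dkk3 at −0.24. The call at 12 h was Wif1 (0.58, 0.0417).

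Of 13 nuclear effectors and feedback targets, 2 were higher in males, Sp5 at 0.79 (9.08e-06) and Tcf7l2 at 0.34 (0.00164). Nkd2 at −0.30 (0.0267) and, named after its value was seen, Nkd1 at −0.24 (0.0481), which restrain Dishevelled, were lower. Lef1 was lower at 6 h (−0.43, 0.0158), and 0 of 13 passed at 12 h. The median log2 ratio of this list was −0.043 between the sexes, that of the secreted modulators −0.037 and that of the receptors −0.001, beside 0.058 for the 10 ligands and 0.0008 for all genes.

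**Figure D4:**
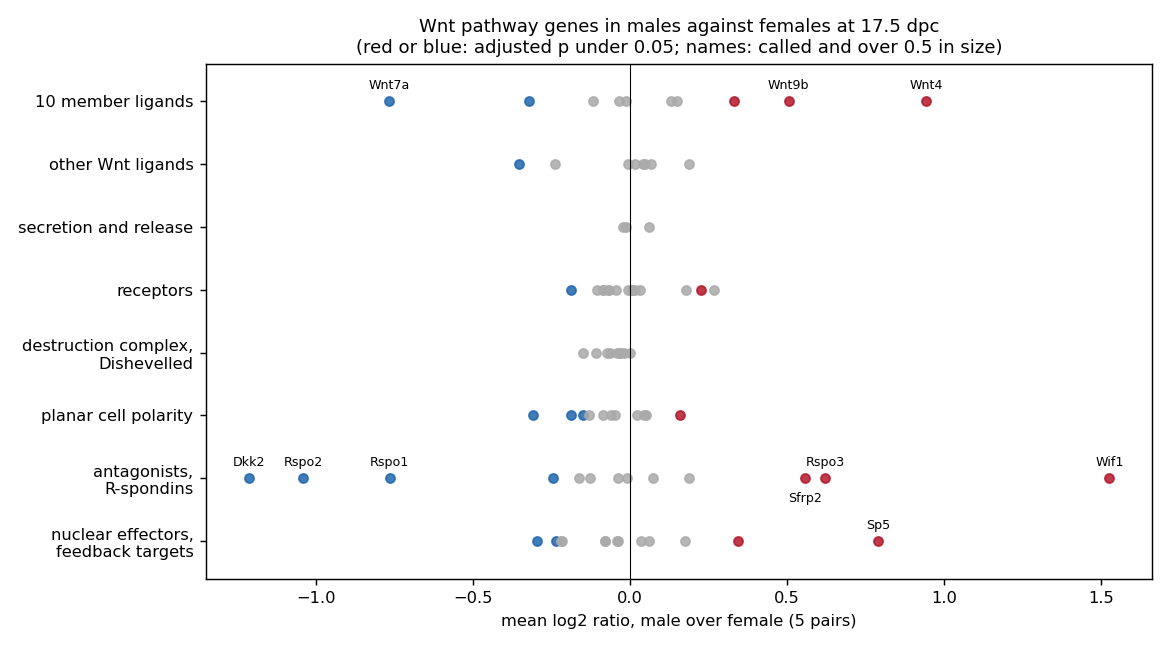
Mean log2 ratio of male over female (x axis, 5 pairs) for the 10 member ligands and the genes of 7 pathway lists (rows); each point is a gene, red and blue mark an adjusted p under 0.05, and names are given for called genes over 0.5 in size. Wif1 at 1.53 and Dkk2 at −1.21 mark the ends, with Wnt4 at 0.94 and Wnt7a at −0.77 the widest among the ligands.

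Under 30 alternative settings, Wnt4 and Wnt7a kept their call between the sexes in all, with log2 ratios of 0.72 to 1.09 and −1.70 to −0.64. Wnt9b and Wnt5b lost it in 1 each, with the mesenchymal covariate. Wnt6 lost it in 4: the 3 covariates and the fit of the male-female pairs alone (adjusted p 0.0592).

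**Figure D5:**
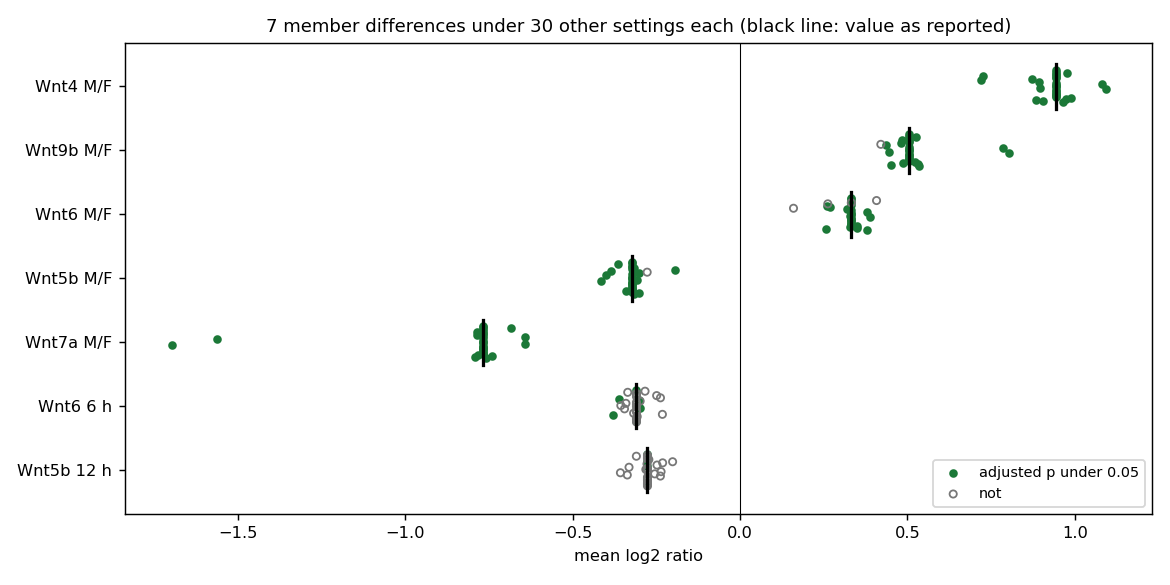
Mean log2 ratio (x axis) of 7 member differences (rows; M/F is male over female) under 30 other settings each; filled points have an adjusted p under 0.05, open points do not, and black lines are the values reported. All points stay on the same side of 0, those of Wnt4 and Wnt7a between the sexes are all filled, and most of Wnt5b at 12 h and Wnt6 at 6 h are open.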

How the data were processed

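The series holds 24 arrays in 12 dye-swapped pairs of pools. The Cy3 and Cy5 intensity values of each spot and its local background are the scanner's, as deposited; per the file headers they come from Agilent Feature Extraction 7.5.1. The deposited log10 ratio of each spot is that software's own, and served as an alternative. The deposited series matrix holds log2 ratios per array, already turned to the same direction, whose processing is not given in the sources used here; its column medians lie between −0.0112 and 0.0108.

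From the intensities, background was corrected by normexp (offset 50), dyes by loess, and outlier spots left out. Signs were turned, and spots of a probe and then the 2 arrays of a pair averaged. Of 41174 probes, those with a channel well above background on at least 6 of 24 arrays were kept, and the brightest per gene used (24717 genes). Levels are signals after Aquantile scaling. Limma 3.58.1 (R 4.3.3) fitted the 3 comparisons together, with Benjamini-Hochberg adjustment over all genes at 0.05. Gene names follow the array files, updated through RefSeq where possible. P-values measure the spread between pools; the labels number them as biological replicates. The number of arrays limits the precision. Array median raw signals were 102.3 to 151.1 in Cy3 and 98.14 to 146.2 in Cy5.

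The fit was tested on simulated data with independent noise for each gene and 200 changed genes among 24675. Of the 100 with a change of 0.3 on the log2 scale, 83% were recovered at 6 h, 58% at 12 h and 85% between the sexes. Genes that move together were not simulated, so recovery in the real data can differ. All 10 members are named; of each pathway list, counts and up to 3 called genes by smallest p, beside further called genes that are marked as named after their values were seen; and for called members the 3 genes of most similar pattern. The members and lists were chosen with earlier results of these data known. Alternatives covered background correction, normalization, filters, probe choice, fit, left-out pairs and marker covariates.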

Additional observations from a re-analysis of the deposited data

Results flagged for a closer look

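In 4 of 72 groups of values tested, 1 sample stood apart from the rest of its group, and chance gives about 1 in 20. Wnt10a had a male over female log2 ratio of 0.94 in pair 2, where the other pairs lay between −0.26 and 0.07. Wnt7a had a DHT over vehicle log2 ratio of 0.18 in pair 2 at 6 h, against −0.02 to 0 in the others. The level of Wnt6 (brighter probe) was 9.4 in male pool 4, against 9.05 to 9.13 in the other male pools. The level of Wnt5a was 6.63 in female pool 2, against 6.49 to 6.52 in the other female pools.

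In 7 tests of the difference between comparisons, the adjusted p in limma was under 0.05. The male-female log2 ratio minus the 6 h ratio was 1.14 for Wnt4, 0.64 for Wnt6, 0.59 for Wnt9b, −0.81 for Wnt7a and −0.23 for Wnt5b. The male-female ratio minus the 12 h ratio was 0.75 for Wnt4 and −0.66 for Wnt7a.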

How the results depend on the processing

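No result changed direction past the threshold under any alternative run. The count of ligands called between the sexes was 5 and fell to 2 with the mesenchymal mean as a covariate, which was chosen after seeing the data. At 6 h the count went from 0 to 1 (Wnt6) with the deposited series matrix, with median centring, with a dye term on 24 arrays and with the mesenchymal covariate. At 12 h it went from 1 to 0 without background correction, with normexp offset 0, the scanner's ratios, the series matrix, median centring, a stricter filter, outlier spots kept, the mean over probes, each comparison fitted alone, the 6 h response from pair 1 only, each of the epithelial, mesenchymal and duct covariates, and eBayes with trend and robust settings. Leaving out 1 pair at a time gave 0 to 1 at 6 h (1 without 6 h pair 3 or male-female pair 4) and 0 to 1 at 12 h (1 without male-female pair 1). The count of called differences between comparisons was 7, and 3 with the 6 h response from pair 1 only (1 pair, its spread assumed to be that of the other groups) or 4 with the epithelial covariate; of the 7, 3 held with the mesenchymal and 4 with the duct covariate. The cause was not tested. With the pair number as a replicate block, the 12 h count was 0 and Wnt5b was −0.28 (adjusted p 0.123). The numbers were not treated as pairing: pairs of the same number in different comparisons correlated at −0.061 to 0.272, with 6 of 10 over 0.1. In the simulation, with independent noise for each gene, 58% of changes of 0.3 were recovered with the 3 pairs at 12 h.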
